A study of Homo sapiens with 2 samples.

Results

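The feedback and early response genes of ERK signalling described here are IER3, DUSP1, DUSP4, DUSP5, DUSP6, SPRY2, SPRY4 and PHLDA1. These 8 genes were given by name with their hg19 positions, and a region was assigned to a gene when its edge lay in the gene or within 5 kb of it. Of 364 broad and 2792 narrow regions in all, 7 broad and 4 narrow regions met this rule, at 5 of the 8 genes. The regions come from chromatin immunoprecipitation and sequencing of HMGB2, a chromatin protein of the high mobility group that bends the DNA it binds. The cells were IMR90, a line of human lung fibroblasts kept at 2% oxygen. One group was infected with RAS, an oncogene that drives fibroblasts into senescence, and was labelled RAS-induced senescent; the other was growing and served as control. Each group had 1 library, made from 10 ng of precipitated DNA at day 2. The sources used here name neither the form of RAS nor its vector or an input control, and the region lists hold no expression values against which the cell type could be checked.

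ERK is the last kinase of the RAS, RAF, MEK and ERK cascade, which passes signals from growth factor receptors to the nucleus. Its activity induces immediate early genes, and among the induced genes are several whose products turn the cascade down again. DUSP proteins remove phosphate from MAP kinases, Sprouty (SPRY) proteins restrain signalling from receptor tyrosine kinases to RAS, and IER3 and PHLDA1 are early response genes linked to cell survival and stress. In fibroblasts with oncogenic RAS, such negative feedback is a known part of the response to sustained ERK signalling.

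Both lists were called on senescent against growing cells, and the list names, which put senescent first, are the only ground for taking the regions as higher in senescence. Each row gives a position and no score, fold or read count. Values for each library can therefore not be given, the depth is unknown, and no difference has a replicate check. A gene without a region is one where no call was made, which does not show that HMGB2 was absent. Broad regions had a smallest width of 500 bp, which 311 of them had, and are called wide here when they exceeded it. All narrow regions were 264 bp wide.

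HMGB2 regions lay at early response genes and at feedback inhibitors of both families, but not at every member of either family. Broad regions lay at 4 of the 8 genes, IER3, PHLDA1, DUSP6 and SPRY2, and each of the 4 had at least 1 wide region. As a background, 0.234% of 20 kb windows of the genome held a broad region and 0.0323% held a wide one. Narrow regions lay at 4 of the 8 genes, IER3, PHLDA1, DUSP1 and SPRY2, against 1.81% of such windows. The genes were put forward with earlier results of these lists known, so these counts are a description. With their flanks the genes span 11356 to 27605 bp, and most windows of the genome hold no start of a protein-coding gene, so the windows are only a rough background.

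**Figure D1:**
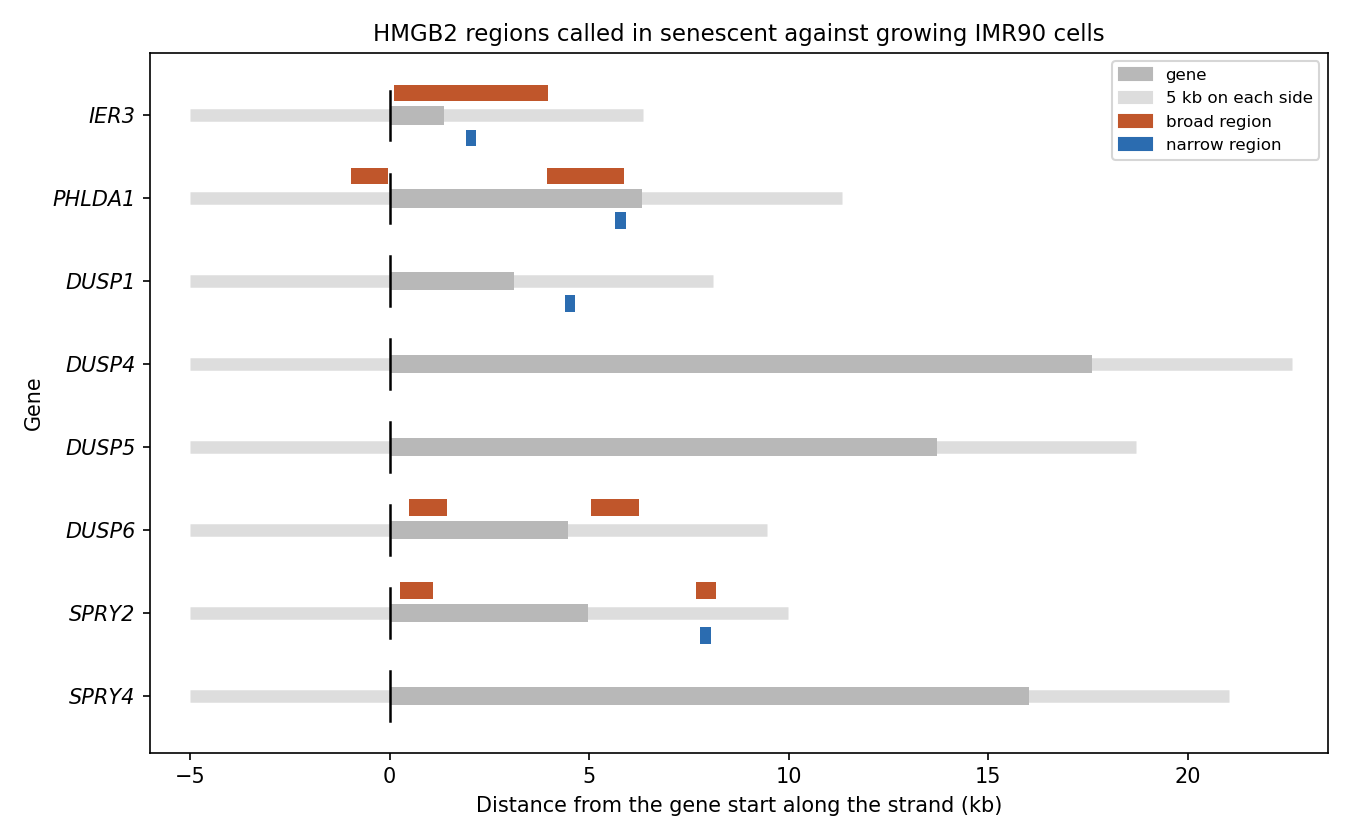
Each gene is drawn from its start along its strand (x axis, kb), with the gene in dark grey and 5 kb on each side in light grey; broad regions are above and narrow regions below the gene. PHLDA1, DUSP6 and SPRY2 each have a pair of broad regions, 1 near each end of the gene. No region covers the start of the gene drawn (black line).

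Among the early response genes, IER3 had the widest region of the set. Its broad region ran over 3858 bp, chr6:30708362-30712220 in hg19, and was the second widest of the list, after 1 of 6140 bp. IER3 is a short gene of 1356 bp on the minus strand (chr6:30710976-30712331). The region covered 91.7% of it, beginning 111 bp inside the gene start and running 2614 bp past the gene end. Thus 32.2% of the region lay in IER3. The narrow region at chr6:30710159-30710423 lay wholly inside the broad one, 553 to 817 bp past the gene end. FLOT1, which encodes a membrane scaffold protein, is the coding neighbour on that side in the RefSeq annotation, and the antisense gene IER3-AS1 overlaps IER3. To which of these genes the part past the end of IER3 belongs was not tested. No gene models of hg19 other than those of the 8 genes were used. RefSeq in GRCh38 served here only to name neighbours, and the distance from IER3 to FLOT1 was not measured. Whether the narrow region and the part past the end lie over FLOT1 was therefore not tested.

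PHLDA1, an early response gene with a pleckstrin homology-like domain, carried the second largest amount of broad region, 2870 bp in 2 regions. The gene spans 6330 bp on the minus strand (chr12:76419227-76425556). The wider region, chr12:76419675-76421609, was 1934 bp wide, lay wholly in the gene and covered 30.6% of it, in the part toward the gene end. It stopped 448 bp before the end. The other, chr12:76425596-76426532, was 936 bp wide and lay wholly upstream, 40 to 976 bp from the gene start. It is the only region of the 11 that lay upstream of the start of the gene it was assigned to. The divergent transcript PHLDA1-DT is the nearest RefSeq gene on that side, so the upstream region cannot be assigned to PHLDA1 alone. The narrow region, chr12:76419636-76419900, lay in the gene 409 to 673 bp before its end. Of its 264 bp, 225 (85.2%) overlapped the wider broad region. The antisense gene PHLDA1-AS1 overlaps PHLDA1 in the RefSeq annotation, and whether it lies over these regions was not tested.

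The 250 bases before the start of PHLDA1 are shown because this is the promoter of the set with a region next to the gene start. Those of DUSP1 are shown because it alone held any of the motifs searched below. DUSP1 had no region upstream, and neither had DUSP6, SPRY2 and SPRY4, whose windows held no motif. Both are from the RefSeq promoter table in GRCh38.p14, chr12:76031777-76032026 and chr5:172771196-172771445, both on the minus strand, written 5′ to 3′ up to the base before the start. In PHLDA1, capitals mark the 211 bases that lie 40 bp or more before the start, the distance at which the broad region begins in hg19. The gene has the same span of 6330 bp in both annotations, and positions were not converted. In DUSP1, capitals mark the motifs found.
PHLDA1: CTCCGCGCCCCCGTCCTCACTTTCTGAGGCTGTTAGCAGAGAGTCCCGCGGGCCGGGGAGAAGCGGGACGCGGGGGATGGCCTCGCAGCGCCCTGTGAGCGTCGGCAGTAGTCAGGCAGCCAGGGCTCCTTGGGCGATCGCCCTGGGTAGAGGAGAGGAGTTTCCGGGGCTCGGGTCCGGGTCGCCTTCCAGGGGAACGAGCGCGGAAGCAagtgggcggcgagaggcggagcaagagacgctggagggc
DUSP1: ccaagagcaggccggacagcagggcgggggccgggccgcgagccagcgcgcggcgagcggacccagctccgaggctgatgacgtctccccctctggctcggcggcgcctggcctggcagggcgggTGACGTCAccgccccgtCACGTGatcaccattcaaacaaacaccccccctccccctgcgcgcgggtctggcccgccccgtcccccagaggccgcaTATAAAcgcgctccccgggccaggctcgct

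Motifs of 6 kinds were searched on both strands in these 250 bases of the 5 genes in the promoter table, DUSP1, DUSP6, SPRY2, SPRY4 and PHLDA1. The window nearest the gene edge was used for each gene, which is 1 of 3 windows for SPRY2, and for SPRY4 its only window, whose start lies 774 bp from the gene edge in RefSeq. DUSP1 held a TATA box (TATAAA) 30 to 25 bases before its start, a cyclic AMP response element (TGACGTCA) at 125 to 118 bases and an E-box (CACGTG) at 108 to 103 bases. Of all 35116 windows in the table, 10.7%, 1.65% and 6.34% held these motifs. The AP-1 element (TGANTCA, in 6.57% of all windows), the ETS element (CCGGAAGT, 3.42%) and the serum response element (1.16%) had no match in the 5 genes, and PHLDA1, DUSP6, SPRY2 and SPRY4 had no match to any of the 6 in the windows used. The searched motifs do not overlap in DUSP1. The upstream bases of PHLDA1 and SPRY2 were 70.4% G and C each, those of DUSP1 74.4%, those of SPRY4 65.6% and those of DUSP6 57.2%, beside a median of 58.0% over all windows.

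The DUSP phosphatases were unequal. DUSP6, a cytoplasmic phosphatase that prefers ERK, had 2 wide regions and no narrow one. The region of 964 bp, chr12:89744854-89745818, lay in the gene from 478 to 1442 bp after its start and covered 21.6% of its 4460 bp (chr12:89741837-89746296, minus strand). The region of 1198 bp, chr12:89740042-89741240, lay from 597 to 1795 bp past the gene end. The RefSeq model of DUSP6 is 807 bp longer than the span used here, so whether this region lies past the end or over it depends on the gene model. The readthrough gene POC1B-DUSP6 overlaps DUSP6. The nearest narrow region was 722 kb away.

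DUSP1, a nuclear phosphatase that acts on several MAP kinases and is itself an immediate early gene, showed the opposite pattern, a narrow region without a broad one. The narrow region, chr5:172193548-172193812, lay from 1281 to 1545 bp past the end of the gene (chr5:172195093-172198203, minus strand, 3111 bp). It stood at place 15 of the 2792 narrow regions. The nearest broad region was 4594 kb away from the gene.

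DUSP4 and DUSP5, nuclear phosphatases of the same family, had no region within 5 kb. For DUSP4 (chr8:29190581-29208185, minus strand) the nearest broad region was 3198 kb away and the nearest narrow region 1561 kb. That broad region, 628 bp wide, lies in the same chromosome band as DUSP4, so sharing a band with a wide region did not mean closeness here. For DUSP5 (chr10:112257596-112271302, plus strand) the nearest narrow region lay 58.3 kb past the gene end and the nearest broad region 2734 kb upstream.

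**Figure D2:**
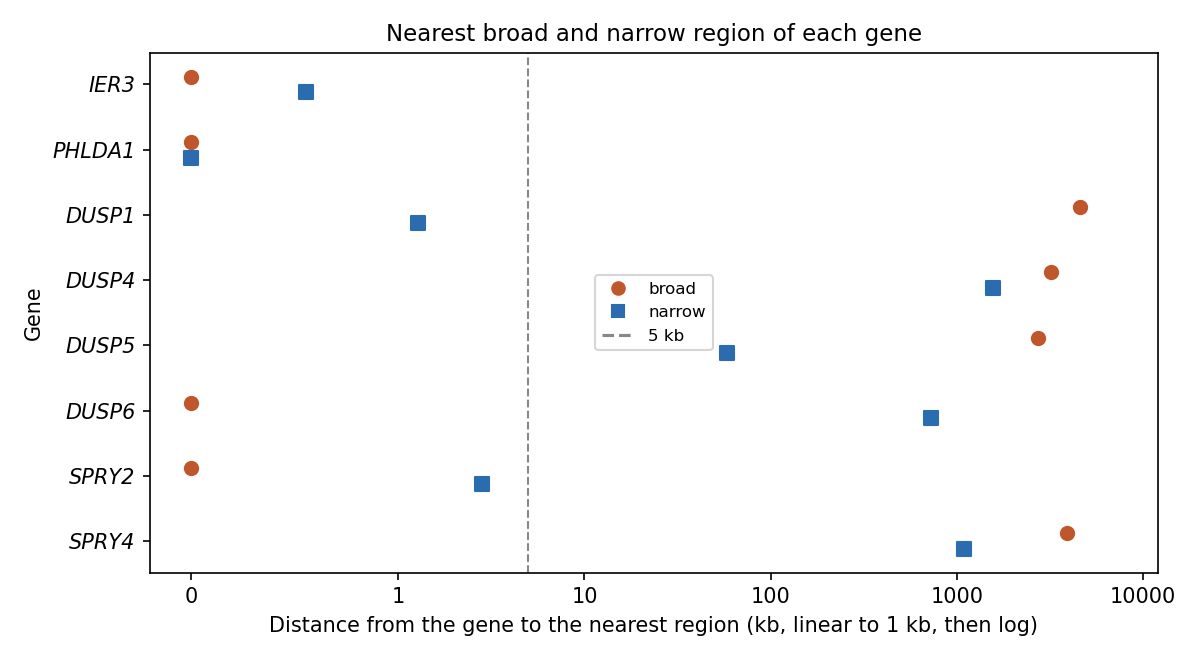
Distance from each gene to its nearest broad region (circles) and narrow region (squares) on an axis that is linear to 1 kb and logarithmic beyond; the dashed line marks 5 kb. No nearest region falls between 2.81 and 58.3 kb, so the choice of 5 kb separates 2 well-spaced groups.

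The pair of Sprouty genes also differed in their calls. SPRY2 (chr13:80910111-80915086, minus strand, 4976 bp) had a wide region of 834 bp, chr13:80913997-80914831, that lay in the gene from 255 to 1089 bp after its start and covered 16.8% of it. A second broad region of the smallest width, chr13:80906916-80907416, lay from 2695 to 3195 bp past the gene end, and the narrow region at chr13:80907034-80907298 lay wholly inside it. The RefSeq model of SPRY2 is 175 bp longer than the span used here, so these distances can shift with the gene model. SPRY4 (chr5:141689992-141706020, minus strand) had no region within 5 kb. Its nearest narrow region was 1097 kb away and its nearest broad region 3884 kb. With 1 library per condition, the difference between the members of a family was not tested.

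By position, regions sat beside the gene starts and around the gene ends. None of the 11 regions held the first base of the gene it was assigned to. This allows a share of up to 27.3% (3 counts of 11, counting error only). Whether a region held the start of another gene, such as FLOT1 or PHLDA1-DT, was not tested. The 11 are not independent, because 3 of the narrow regions overlap a broad region that is counted too. The nearest edges to a start were those at PHLDA1 (40 bp upstream), IER3 (111 bp inside), SPRY2 (255 bp inside) and DUSP6 (478 bp inside). These distances use the gene spans given here, and the RefSeq models of SPRY2 and DUSP6 are longer. All 4 narrow regions lay nearer to the gene end than to the gene start. At IER3, DUSP1 and SPRY2 they were past the end, and at PHLDA1 inside the gene. Of the 7 broad regions, 4 lay nearer to the gene end. With the spans used here, the 1 at IER3 was the only region that held the end of its gene. With the longer RefSeq model of DUSP6, its region past the end may hold the gene end too.

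**Figure D3:**
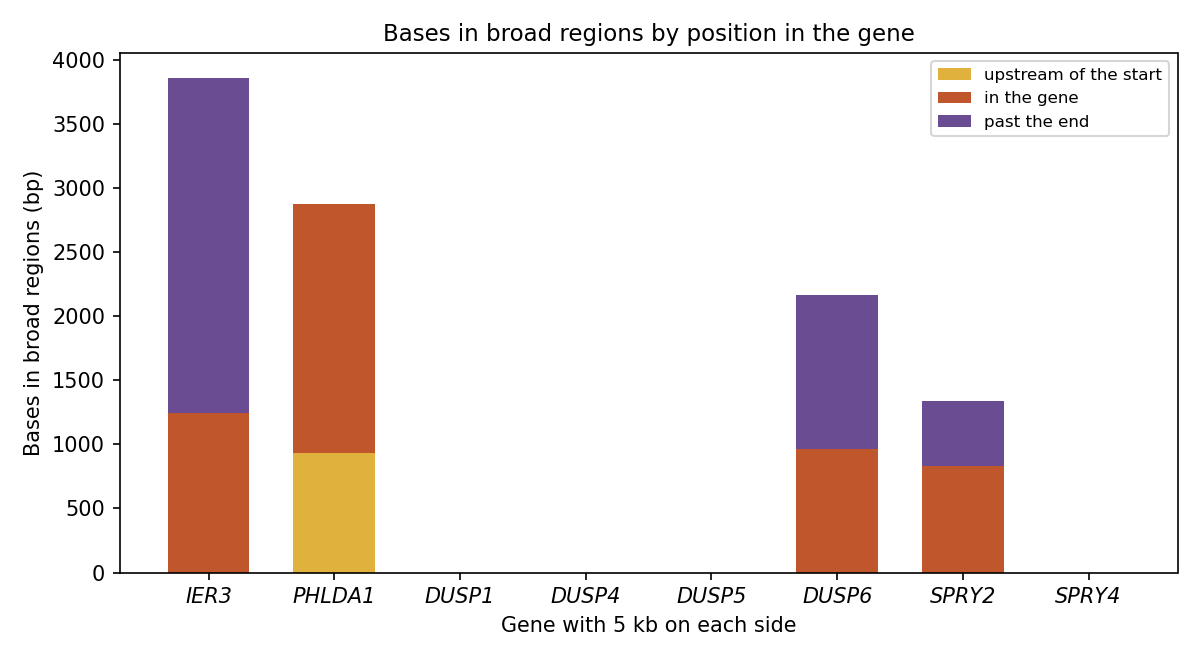
Bars show the bases of broad regions within reach of each gene (y axis, bp), divided by position upstream of the start, in the gene and past the end, by the gene spans used here. IER3 has the most, 3858 bp, with 2614 bp past its end, and PHLDA1 is the only gene with bases upstream.

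In sum over the genes, broad regions took up 10224 bp. By the gene spans used here, 4976 bp (48.7%) lay in the genes, 4312 bp (42.2%) past their ends and 936 bp (9.15%) upstream. IER3 alone gave 2614 of the bases past the ends, and whether these lie over its neighbour FLOT1 was not tested. Broad regions covered 6.93% of the 148 kb made up by the genes and their flanks, against 0.00758% of the genome, and narrow regions 0.716% against 0.0238%. Assembly gaps were counted in the genome. As the genes were chosen with earlier results of these lists known, this contrast is a description.

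DUSP6, PHLDA1 and SPRY2 carried a pair of broad regions, 1 toward each end. The gap between the pair was 3614 bp at DUSP6, 3987 bp at PHLDA1 and 6581 bp at SPRY2. The outer edges of the pair spanned 5776, 6857 and 7915 bp in these genes, each more than the gene itself. At DUSP6 and SPRY2 the region near the start lay inside the gene and the other past its end, whereas at PHLDA1 the region near the start was upstream and the other inside. IER3, the shortest of the genes, had 1 region over most of its length in place of a pair.

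Within this chosen set, gene length differed between genes with and without a region. The 5 genes with a region, IER3, DUSP1, DUSP6, SPRY2 and PHLDA1, spanned 1356 to 6330 bp, and the 3 without, DUSP4, DUSP5 and SPRY4, spanned 13707 to 17605 bp. The spans of these groups did not overlap. Lengths of other genes with and without a region were not compared. The genes were chosen with earlier results of these lists known, so this difference is a description of the set only. The part of gene length in the calls was not tested.

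The broad regions at these genes were also compared with the other broad regions in width, closeness to another broad region and content of a narrow region. Of the 7, 6 were wide (85.7%, exact binomial 95% interval 42.1 to 99.6), against 47 of the other 357 (13.2%, 9.84 to 17.1). Another broad region lay within 10 kb of 6 of the 7 (85.7%, 42.1 to 99.6), the exception being that of IER3, and within 10 kb of 33 of the other 357 (9.24%, 6.45 to 12.7). Regions collected within 5 kb of the same short gene lie close to each other. The rule therefore partly sets this closeness, also among wide regions alone. A narrow region lay in 3 of the 7 (42.9%, 9.90 to 81.6) and in 97 of the other 357 (27.2%, 22.6 to 32.1), intervals that overlap. The genes were chosen with earlier results of these lists known, so all of these comparisons are descriptions. The intervals treat regions as independent, whereas the 6 regions with a neighbour are the pairs at DUSP6, PHLDA1 and SPRY2, each of which counts its partner. Among wide regions alone, the 6 at these genes had a median width of 1081 bp, close to the 1048 bp of the other 47. A broad region lay within 10 kb of 5 of the 6 (83.3%, 35.9 to 99.6), all from the same 3 genes, and of 16 of the other 47 (34.0%, 20.9 to 49.3), and these intervals overlap.

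**Figure D4:**
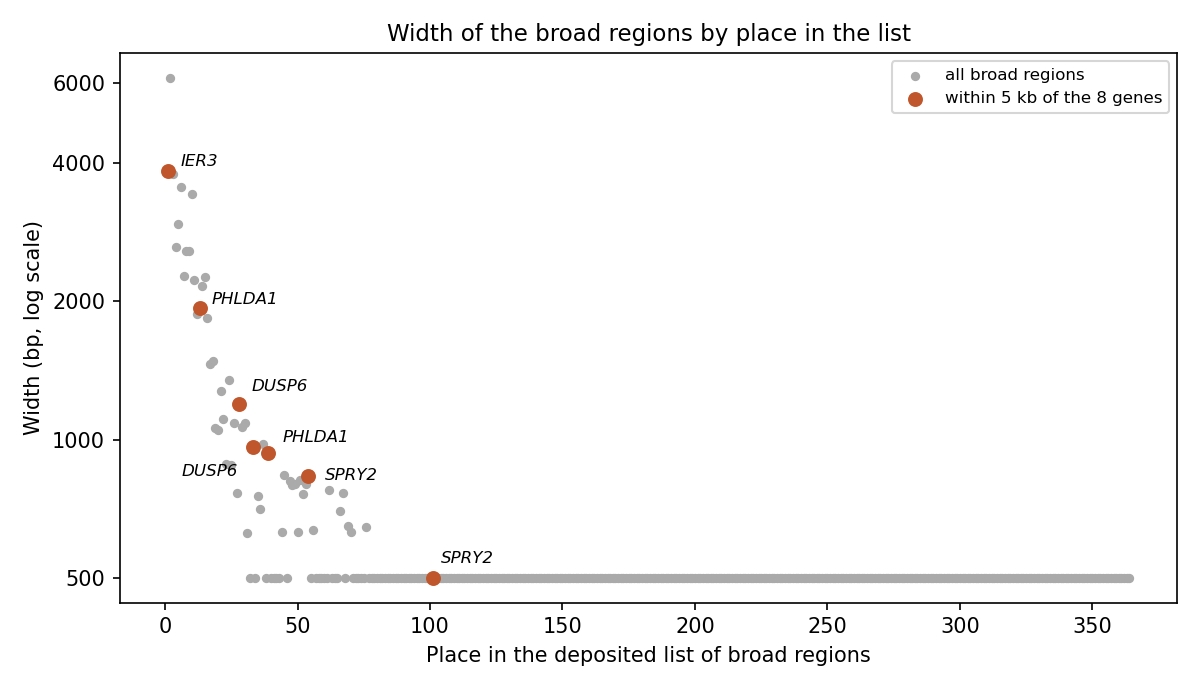
Every broad region is plotted by its place in the deposited list (x axis) and its width in bp (y axis, log scale), with those at the 8 genes in colour and named. The widest of IER3 and of PHLDA1 stand at places 1 and 13, and the region of 500 bp past the end of SPRY2 at place 101.

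In the deposited order, whose meaning the sources used here do not give, the regions of these genes had the following places. The broad regions stood at place 1 (IER3), 13 and 39 (PHLDA1), 28 and 33 (DUSP6), and 54 and 101 (SPRY2) of 364. An early place was shared by wide regions in general, since all 53 of them stood in the first 76 places, with the first region of 500 bp at place 32. The narrow regions, which have the same width throughout, stood at place 1 (IER3), 7 (PHLDA1), 15 (DUSP1) and 100 (SPRY2) of 2792. IER3 was thus first in both lists. Where both kinds were present, at IER3, PHLDA1 and SPRY2, the narrow region overlapped a broad one in each gene. Both lists come from the same 2 libraries, so this overlap is no independent observation.

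Other genes of the pathway could be placed by chromosome band only. A list of 35 genes was used, with further DUSP, Sprouty and SPRED inhibitors, immediate early transcription factors and the kinases of the cascade. Of these, 4 (11.4%) had a wide region in their band, against 10.3% of all protein-coding genes, a share near the background. They were DUSP8, a MAP kinase phosphatase, in 11p15.5, FOSB, a subunit of AP-1, in 19q13.32, and IER2 and JUNB, an immediate early gene and another AP-1 subunit, both in 19p13.13 with the same wide region. The length of 19p13.13 differs between hg19 and GRCh38, so the last pair is uncertain. The immediate early genes EGR1, FOS and JUN and the feedback inhibitors SPRY1, SPRED1 and ERRFI1 lay in bands without one. At the scale of bands, 5 of the 8 genes described here shared a band with a wide region, and for 4 of them it lay within 5 kb.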

How the data were processed

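HMGB2 binding was measured by chromatin immunoprecipitation and sequencing in 1 senescent and 1 growing library of IMR90 cells. The authors deposited 2 lists of regions, which per the file headers give an identifier, chromosome, start and end in bp, with no other value. Bowtie 0.12.9, HOMER 1.0 and hg19 are named in the submitters' processing notes, with no role or order. The sources used here do not give peak settings, duplicate treatment or input. Whether positions count from 0 or 1 is not stated, so distances can be off by 1 bp. Width was end minus start.

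The 8 genes and the other lists were chosen with earlier results of these data known, and all 8 are named. Strand came from the RefSeq promoter table or, for IER3, DUSP4 and DUSP5, from general annotation knowledge. Distances were taken edge to edge within 5 kb, and bedtools 2.31.1 gave the same 7 and 4 pairs. The background is every 20 kb window of hg19, with chromosome lengths as shipped with R's GenomeInfoDb. Bands came from circlize 0.4.16 and were joined by name between hg19 and GRCh38.p14, without converting positions. Of the other pathway genes, the rule names those whose band holds a wide region, and the 6 named without one were chosen after their values were seen, as examples. No test between libraries was possible. The counting was checked on simulated data (200 of 200 planted regions found). Python 3.11.15, pandas 2.3.3, numpy 2.4.6, scipy 1.17.1 and matplotlib 3.10.9 were used. Intervals are exact (Clopper-Pearson), and the limit for a count of 0 is 3 counts of the total.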

Additional observations from a re-analysis of the deposited data

How the results depend on the processing

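The count of 4 genes with a broad region was the same within 1, 10 and 50 kb, in the gene body, with wide regions only and in the first 50% of the list. With each gene left out in turn the count was 3 or 4, which holds by construction. With broad regions that hold a narrow one only, an alternative chosen after seeing the data, the count was 3. The number of broad regions was 6 within 1 kb and 7 otherwise, also with regions less than 1 kb apart joined. Narrow regions depended on the distance: 2 regions at 2 genes lay within 1 kb and 1 gene had one in its body, because those at DUSP1 and SPRY2 lie farther past the gene end and that at IER3 lies outside the gene. The overlap of both kinds held at 3 genes under both alternatives. The background share rose with window size by construction, from 0.121% (10 kb) to 0.551% (50 kb) for broad and from 0.921% to 4.39% for narrow regions, and was 0.184% for broad regions in windows of the median gene with its flanks. No region held the start of the gene it was assigned to with starts moved by 1 bp. Within 50, 250 and 500 bp of that start came 1, 2 and 4 regions (distances chosen after seeing the data). No paired analysis was possible because there is only 1 library for each condition. As the depth is unknown, a gene without a region may be one with too few reads for a call.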
